A study of Mus musculus with 6 samples.

Results

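The retinoic acid (RA) response of cells carrying the shRxr hairpin was measured in 2 of the 6 RNA-seq libraries of the series. The treated library, shRxr_RA, came from cells given 1 µM all-trans RA for 48 hours, and shRxr_UT came from untreated cells of the same line. All 6 libraries are from mouse F9 teratocarcinoma cells, an embryonal carcinoma line, kept in charcoal-stripped serum. The labels say neither which retinoid X receptor gene the hairpin was made against nor whether a line is a clone or a pool. The same 2 treatments were sequenced in shGFP cells, which carry a control hairpin, and in shCtbp2 cells, which carry a hairpin against the corepressor gene Ctbp2. Each group is 1 library, so nothing below has a replicate check, no p-value is given, and differences between these libraries may hold spread between cultures.

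Levels are given as normalised reads, that is, reads per 10000000 reads counted in genes. The shRxr_UT library held 11947894 gene reads and shRxr_RA held 9955808, so 1 read is worth 0.837 and 1.00 normalised reads. A fold is the ratio of these levels, and the range after it is an exact 95% interval that covers counting error only. Against a library with 0 reads the fold is a lower bound from a floor of 3 reads. A log2 change is taken after adding 10 normalised reads, so the change of a low gene is understated. Genes at least 2-fold apart on that scale are counted as higher or lower. The counts run over the 12332 of 25904 deposited genes that averaged at least 20 normalised reads over the 6 libraries. A gene low in untreated cells could pass that minimum only through its level with RA, so counts over gene lists are descriptions.

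RA acts through nuclear receptors. An RA receptor (RAR) pairs with a retinoid X receptor (RXR), the pair sits on direct repeats of a short half-site near its target genes, and RA binding exchanges corepressors for coactivators. Early targets include enzymes that break RA down and the anterior Hox genes. In F9 cells RA is known to start differentiation towards extraembryonic endoderm, with loss of the pluripotency program.

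The receptor transcripts were examined first, since they check the hairpin. Rxra (ENSMUSG00000015846, mm9 chr2:27531960-27618477) stood at 73.7 normalised reads without RA and 82.4 with RA in shRxr cells. It stood at 520 and 805 in shGFP cells and 372 and 821 in shCtbp2 cells. Both shRxr libraries were thus the lowest of the 6, by 7.06-fold (5.65 to 8.93) without RA and 9.78-fold (7.81 to 12.4) with RA relative to shGFP. RA left Rxra nearly level in shRxr cells (1.12-fold higher, 0.818 to 1.53). Rxrb, a second RXR gene, was 638 without and 546 with RA in shRxr cells and 605 and 673 in shGFP cells, so its transcript was not depleted to a like degree. Rxrg, the remaining RXR, was under 20 normalised reads in the 4 libraries of these lines. Among the RARs, Rara went from 1162 to 1138 and Rarg from 3766 to 3411 normalised reads. Rarb, itself an RA target, went from 12.6 to 301, a 24.0-fold difference (14.3 to 43.4), against 3.22 to 390 in shGFP cells.

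Cyp26a1, the main RA-degrading enzyme, and Rarb carry the classical repeat of half-sites spaced by 5 bases (DR5) just before their starts. Their 250 upstream bases are shown for this repeat, and both genes were among the 7 with the largest log2 changes in shRxr cells. Of those 7, Stra8, Stra6, Zfp703, Hoxa5 and Hoxa3 are not shown. The sequences are from RefSeq on GRCm38.p6, and capitals mark the repeat with its spacer. The Cyp26a1 stretch, chr19:37697558-37697807 on the plus strand, holds the repeat on the opposite strand, where it reads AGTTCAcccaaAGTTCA. The Rarb stretch is chr14:16575477-16575726 on the minus strand.
Cyp26a1: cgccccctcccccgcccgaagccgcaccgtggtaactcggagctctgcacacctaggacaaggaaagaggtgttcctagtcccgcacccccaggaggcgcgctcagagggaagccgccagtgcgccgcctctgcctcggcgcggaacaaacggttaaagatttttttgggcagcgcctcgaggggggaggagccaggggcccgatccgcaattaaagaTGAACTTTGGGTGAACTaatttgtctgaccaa
Rarb: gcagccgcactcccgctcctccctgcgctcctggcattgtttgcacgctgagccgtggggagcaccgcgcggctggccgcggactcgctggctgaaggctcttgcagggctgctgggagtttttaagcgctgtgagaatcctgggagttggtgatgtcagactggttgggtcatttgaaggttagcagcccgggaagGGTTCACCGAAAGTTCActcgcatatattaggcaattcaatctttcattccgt

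With RA, 649 genes (5.26% of those tested) were higher by 2-fold or more in shRxr cells, and 180 (1.46%) were lower. Scaling by upper quartiles or by median-of-ratios moved the median of all genes by -0.10 and -0.11, and the share of these genes that were higher from 78.3% to 70.7% and 69.6%. Large increases were the more frequent extremes: past 4-fold lay 85 higher and 14 lower genes, and the 20 genes past 8-fold were all higher. The 5 genes past 16-fold were Cyp26a1, Stra8, Stra6, Zfp703 and Hoxa5. In shGFP cells 1649 genes (13.4%) were higher and 872 (7.07%) lower by the same rule, 41 and 2 of them past 16-fold. These shares over all tested genes are those to set beside the counts over gene lists below. The largest share of higher genes was among low ones: 14.0% of genes averaging 20 to 50 normalised reads and 1.07% of those at 1000 or more. Just inside the 2-fold line lay 1700019N12Rik (log2 change 1.0004) and Dpp6 (-1.001), and just outside it Lamb1 (0.9985) and Pqlc1 (-0.9976).

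**Figure D1:**
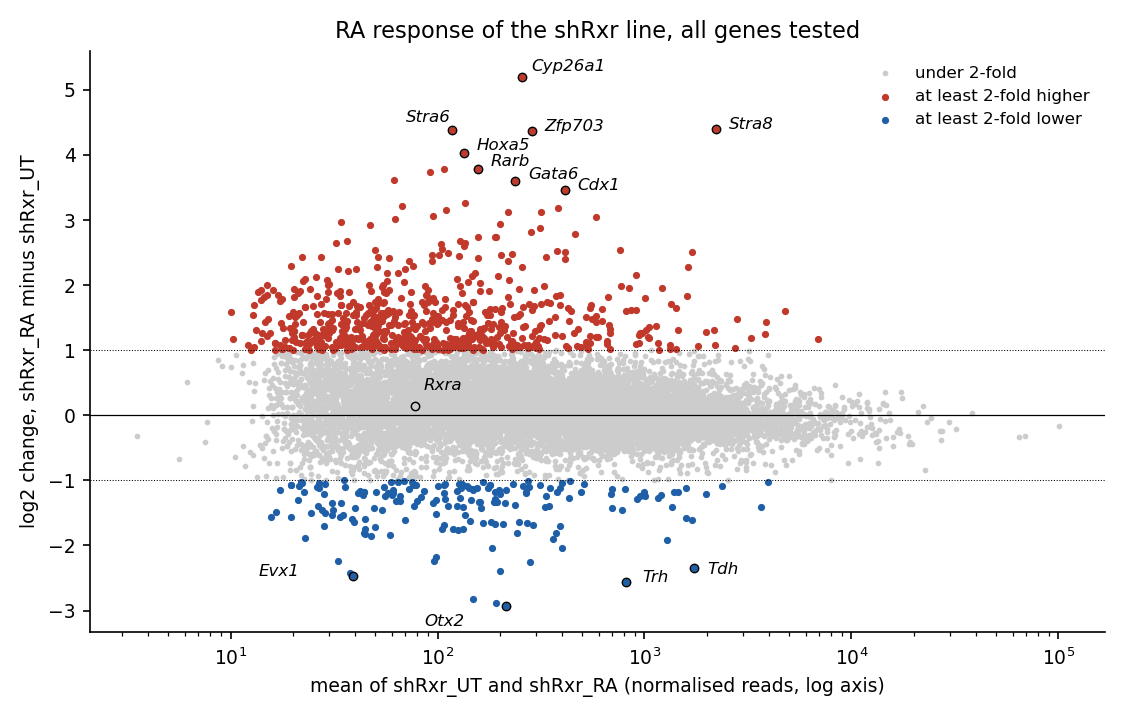
RA response of shRxr cells, 1 point per tested gene. The x axis is the mean of shRxr_UT and shRxr_RA in normalised reads (log axis) and the y axis the log2 change, RA minus untreated, after adding 10. The 649 genes at least 2-fold higher are red, the 180 lower ones blue. The points farthest from 0 lie above it, led by Cyp26a1, and most genes, 10109 of 12332, lie within 1.5-fold.

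The repeats searched in promoter windows were 2 half-sites on the same strand, spaced by 1, 2 or 5 bases. The half-sites allowed were AGGTCA (the consensus), GGGTCA (a variant by its first base), AGTTCA (which Cyp26a1 holds) and GGTTCA (which Rarb holds). Cyp26a1 and Rarb are textbook examples of such repeats, so their matches are no result. They were looked for on both strands of windows from 250 bases before to 50 after a start. Such windows were found for 8707 of the 12306 symbols tested. A DR5 stood in 4 of them (0.0459%), those of Cyp26a1, Rarb, Blvrb and Gm4631. Blvrb changed by 0.66 and Gm4631 by -0.13 on the log2 scale in shRxr cells. Of the 450 genes higher with RA in shRxr cells that had a window, 2 held a DR5 (0.444%) and 3 a repeat spaced by 2 bases (0.667%), namely Tinagl1, Slc25a21 and Ano1, against 12 (0.138%) of the tested genes with a window. None of the 113 lower genes with a window held any of the 3 repeats. Over all 32851 windows in the RefSeq table, 0.0974% held a DR5, 0.268% the 2-base and 0.222% the 1-base spacing. Most genes that responded had no such letters in this short window, which says nothing of sites elsewhere.

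Genes of retinoid breakdown and storage were among the strongest responders. Of 20 genes listed for retinoid uptake, binding and breakdown, 14 were tested and 7 were at least 2-fold higher with RA, none lower, with a median log2 change of 1.04 against 0.09 over all genes. In shGFP cells 8 were higher and the median was 2.29. Cyp26a1 (ENSMUSG00000024987, mm9 chr19:37772298-37776018) stood at 4.18 normalised reads in shRxr_UT and 509 in shRxr_RA, at 8.86 and 2894 in shGFP, and at 4.96 and 2064 in shCtbp2. Its fold in shRxr cells was 122 (51.8 to 376), against 327 (182 to 655) in shGFP cells, and its treated level was 5.68-fold below that of shGFP cells (5.18 to 6.25). The 2 other enzymes of its family were also lower with RA than in shGFP cells. Cyp26b1 went from 3.35 to 48.2 in shRxr cells and from 7.25 to 743 in shGFP cells. The treated levels of Cyp26b1 differed by 15.4-fold (11.5 to 21.0). Cyp26c1 went from 5.86 to 35.2, and from 0.805 to 137 in shGFP cells.

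Stra6, the membrane receptor that takes up retinol, went from 1.67 to 234 normalised reads in shRxr cells, a 140-fold difference (38.3 to 1161) with only 2 untreated reads behind it. Dhrs3, which reduces retinal back to retinol, went from 30.1 to 242 (8.03-fold, 5.64 to 11.7). Among the binding proteins, Crabp2, which carries RA to its receptors, went from 14.2 to 206 (14.5-fold, 8.82 to 25.3), against 14.5 to 1399 in shGFP cells. The 2 lines thus started from similar levels of Crabp2 and ended apart. Not every retinoid gene moved: Aldh1a2, an RA-making enzyme, was 31.8 and 30.1, and Crabp1 was 54.4 and 53.2.

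**Figure D2:**
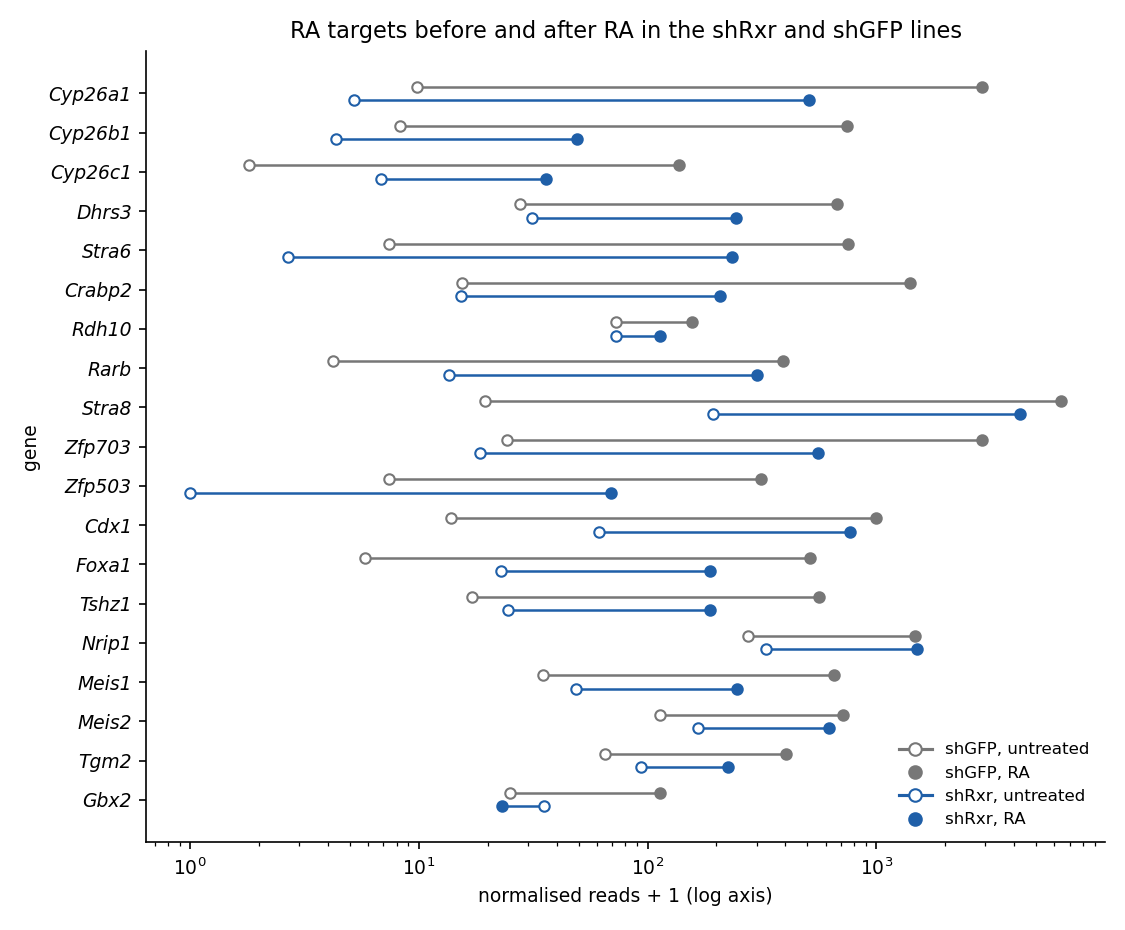
Levels of 19 RA target genes, in normalised reads + 1 on a log axis. Open symbols are untreated and filled symbols RA-treated libraries, grey for shGFP and blue for shRxr, 1 library each. Filled blue symbols lie mostly between the open symbols and the filled grey ones, with Cyp26a1 at 509 against 2894, while Gbx2 is higher with RA in shGFP cells but not in shRxr cells.

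Of 22 other genes listed as direct or early RA targets, 18 were tested and 14 were at least 2-fold higher in shRxr cells, with a median log2 change of 1.93. All 18 were at least 2-fold higher in shGFP cells, where the median was 3.05. Stra8, a germ cell gene named for its response to RA, stood at 192.5 normalised reads in shRxr_UT and 4259 in shRxr_RA, at 18.5 and 6428 in shGFP, and at 13.2 and 4587 in shCtbp2. Untreated shRxr cells held 10.4-fold more Stra8 than untreated shGFP cells (6.76 to 16.7), and treated ones 1.51-fold less (1.46 to 1.57). The fold with RA was 22.1 (19.4 to 25.4) in shRxr and 347 (231 to 548) in shGFP cells. The ratio of those folds was 15.4 (10.05 to 23.6), computed with 0.5 read added to each count. Zfp703, a transcriptional corepressor, stood at 17.6 and 556 in shRxr cells, 23.4 and 2900 in shGFP cells and 9.93 and 2177 in shCtbp2 cells. Its fold in shRxr cells was 31.7 (20.5 to 51.6), and its treated level was 5.21-fold below shGFP (4.77 to 5.71). Untreated Zfp703 was alike in both lines and Stra8 was not.

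Several regulators followed. Cdx1, a homeobox gene that patterns the body axis, was 60.3 and 763 (12.7-fold, 9.94 to 16.4), and its untreated level was 4.68-fold above that of shGFP cells (2.69 to 8.61). Foxa1, a forkhead factor, was 21.8 and 186 (8.54-fold, 5.65 to 13.4). Zfp503 had 0 reads untreated and 68.3 normalised reads with RA, at least 27.2-fold higher. The TALE homeobox genes Meis1 (47.7 and 245) and Meis2 (165 and 619), whose products partner Hox proteins, were higher as well, as were Tshz1 (23.4 and 186), the orphan receptor gene Nr2f2 (10.04 and 64.3) and the transglutaminase gene Tgm2 (92.9 and 224). Nrip1, a nuclear receptor corepressor, responded nearly alike in both lines. It was 329 and 1499 in shRxr cells (4.56-fold, 4.07 to 5.10) and 275 and 1475 in shGFP cells (5.37-fold). Bhlhe40 (290 and 371) and Gbx2 (34.3 and 22.1) did not reach 2-fold in shRxr cells, whereas in shGFP cells they were 229 and 625, and 24.2 and 113. Skap2 and Ets1 were under 2-fold with either other scaling.

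The Hoxa and Hoxb genes give positional identity along the body and are activated by RA in order from the 3′ end of each cluster. Of 21 genes listed, 15 were tested, and all 15 were at least 2-fold higher with RA in shRxr cells, also under both other scalings. Their median log2 change was 2.18, against 4.01 in shGFP cells, and each of the 15 changed less in shRxr than in shGFP cells, as did 72.8% of all tested genes in size. Hoxa5 was 6.70 and 263 (39.3-fold, 19.7 to 92.0), and its treated level was 2.51-fold below shGFP (2.19 to 2.90). Hoxb1 was 0.837 and 122.5, a 146-fold difference that rests on 1 untreated read (25.8 to 5830).

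Several Hoxb genes had 0 reads in untreated shRxr and shGFP cells. With RA, Hoxb2 reached 30.1 normalised reads in shRxr and 110 in shGFP cells, Hoxb5 reached 39.2 and 151, and Hoxb6 reached 27.1 and 266. These are at least 12.001-fold, 15.6-fold and 10.8-fold higher in shRxr cells. Hoxa7 stood apart from its neighbours in having nearly the same response in both lines: it was 16.7 and 111 in shRxr and 15.3 and 110 in shGFP cells, and the ratio of its folds was 1.07 (0.550 to 2.09). Hoxb9 (62.8 and 233) had a measurable untreated level and a smaller fold of 3.71. Of the Hoxc and Hoxd genes, 4 of 18 were tested and 3 were higher. Hox clusters also make antisense RNAs, and a strand setting for the counting is not given in the sources used here, so reads of a gene and its antisense partner cannot be told apart.

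**Figure D3:**
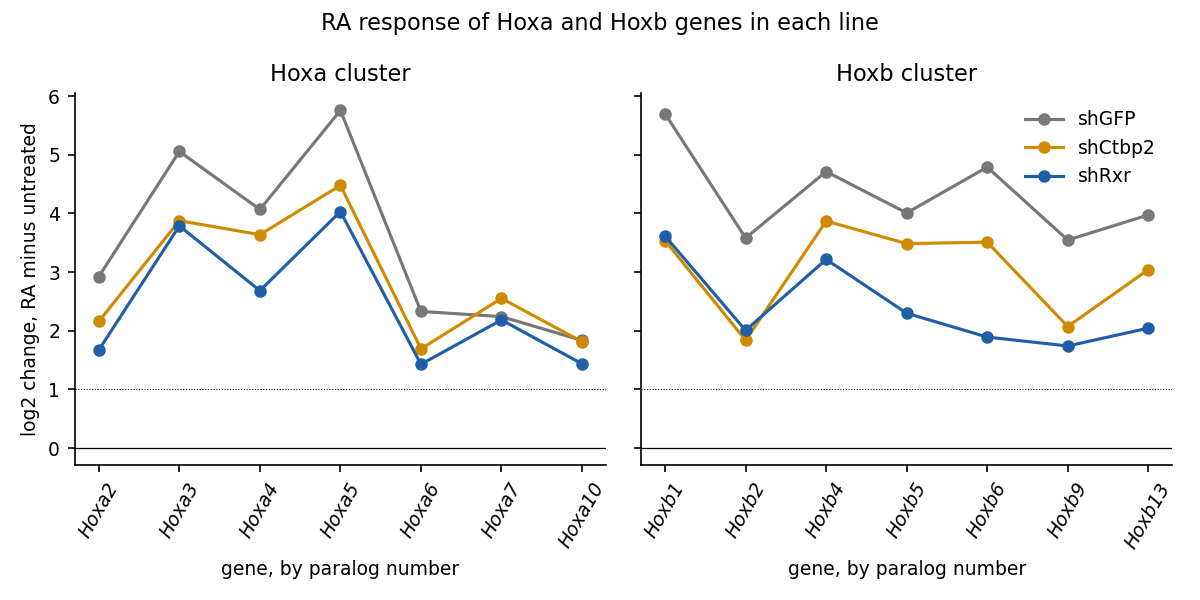
Log2 change with RA, after adding 10, of tested Hoxa genes (one panel) and Hoxb genes (the other), 1 point per line and gene. The dotted line marks 2-fold. The shRxr points drawn all lie above it and below the shGFP points, and at Hoxa7 the shRxr and shGFP points nearly meet.

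Regulators of primitive endoderm, the extraembryonic lineage that F9 cells turn towards, were higher with RA in shRxr cells. In 11 of 12 listed and tested genes the difference was at least 2-fold, with a median log2 change of 1.94 against 2.89 in shGFP cells. Sox7 (333 and 711) is 1 of the 11 and was under 2-fold with either other scaling. Gata6, an early endoderm factor, was 27.6 and 447 normalised reads in shRxr cells (16.2-fold, 11.4 to 23.8) and 29.8 and 739 in shGFP cells (24.8-fold, 17.9 to 35.4). Its treated levels differed by 1.65-fold (1.48 to 1.85). Gata4 was 135 and 452 (3.35-fold, 2.80 to 4.04), Sox17 was 11.7 and 41.2, and Foxa2 was 2.51 and 43.2. Dab2, an endocytic adaptor of endoderm, was 63.6 and 373 (5.86-fold, 4.57 to 7.601), and Pdgfra, a receptor on these cells, was 61.9 and 259. Hnf4a went the other way without reaching 2-fold, at 76.2 and 43.2. In bulk RNA, fewer cells of a type and less RNA per cell cannot be told apart.

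Products of parietal endoderm, mostly basement membrane proteins, were less widely higher. Of 22 tested, 8 were at least 2-fold higher and none lower in shRxr cells, with a median of 0.83, against 15 higher and 1 lower with a median of 1.73 in shGFP cells. Serpinh1, a collagen chaperone, was 1471 and 4138 (2.81-fold, 2.66 to 2.98), against 1186 and 7421 in shGFP cells. The collagen genes Col4a1 (1990 and 4553) and Col4a2 (1235 and 3092) and the laminin gene Lama1 (830 and 2078) were each 2.29- to 2.503-fold higher. Plat, a plasminogen activator used as a marker of F9 differentiation, was 7.53 and 92.4 (12.3-fold, 6.19 to 27.7), against 19.3 and 456. Some members stayed close to their untreated level in shRxr cells. Lamc1 was 6243 and 7047, and the keratin gene Krt8 was 304 and 332 (1.09-fold, 0.940 to 1.27), against 300 and 922 in shGFP cells.

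Visceral endoderm genes were few: 6 of 19 were tested and 3 were higher. Cubn, an endocytic receptor, was 19.3 and 134 (6.94-fold, 4.43 to 11.3), close to its 6.86-fold in shGFP cells, with a ratio of folds of 0.996 (0.582 to 1.70). The defining genes Afp and Ttr had 0 reads in both shRxr libraries. Summed over the marker list, visceral endoderm stood at 21.8 normalised reads untreated and 134 with RA, the treated sum being that of Cubn alone. Primitive and parietal endoderm summed to 5957 and 11916, and embryonal carcinoma to 44283 and 31463. In shGFP cells the last 2 sums went from 6443 to 21502 and from 43521 to 16232. Both sums therefore moved in the same direction in both lines, and less far in shRxr cells. Fibroblast markers summed to 17.6 and 18.1 in shRxr cells, with Col3a1 and Postn at 0, blood markers to 116 and 100.4, and trophoblast markers to 1.67 and 21.1. These sums also rested largely on a single gene each, at up to 16.7, 112 and 20.1 normalised reads. The part of the endoderm and embryonal carcinoma sums in the gene changes was not tested.

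Among the 20 genes with the largest increases that averaged at least 50 normalised reads, several were outside the retinoid, Hox and endoderm lists. Pmp22, a myelin and epithelial membrane protein, was 17.6 and 255. Igf2, the imprinted fetal growth factor, was 56.9 and 574 (10.1-fold, 7.83 to 13.2), against 51.5 and 1108 in shGFP cells. Sdk2, a cell adhesion molecule, was 12.6 and 178. Greb1l, 119 and 1050 (8.83-fold), and Ankrd44, 36.8 and 400, started from measurable untreated levels. Ankrd44 ended 1.33-fold above treated shGFP cells (1.16 to 1.54). Rbm24, an RNA-binding protein of muscle splicing, was 5.86 and 119 (20.2-fold, 9.52 to 51.4), against 3.22 and 96.8. Ankrd44 and Rbm24 thus reached with RA at least the level of shGFP cells, which most of the 20 did not.

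Of 31 tested genes of core and naive pluripotency, 5 were at least 2-fold lower with RA in shRxr cells and none higher. Over all tested genes 1.46% were lower and 5.26% higher. The median log2 change of the list was -0.47, with 7 changes above 0. In shGFP cells 18 were lower and 1 higher, with a median of -1.07, against 7.07% lower and 13.4% higher over all tested genes. Pou5f1 (Oct4) was 18536 untreated and 13335 with RA, 1.39-fold lower (1.36 to 1.42), against 18172 and 8530 in shGFP cells. Sox2 was 4316 and 3107, and Nanog 8245 and 6930. Zfp42 (Rex1), a marker lost early in differentiation, was 8980 and 6197 (1.45-fold lower, 1.404 to 1.495), against 8843 and 2201. The core factors therefore remained abundant in the treated shRxr library. Summed over the whole list, treated levels were 87449.5 in shRxr, 94994 in shCtbp2 and 56564 in shGFP cells, so a high treated sum was not particular to shRxr cells. Klf4 (1561 and 1876), Tbx3 (4539 and 6101) and Tfcp2l1 (11348 and 12329) were somewhat higher with RA in shRxr cells.

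The 5 genes past 2-fold were Tdh, Tdgf1, Lefty2, Lin28a and Utf1, and Fgf4 (3375 and 1694) joined them with either other scaling. Tdh, the threonine-catabolising enzyme of mouse pluripotent cells, was 2913 and 565.5 (5.15-fold lower, 4.71 to 5.64), against 3786 and 291. Tdgf1, a Nodal co-receptor, was 2023 and 892 (2.27-fold lower, 2.10 to 2.45), against 2483 and 248. Its level in treated shRxr cells was 3.59-fold above that in treated shGFP cells (3.16 to 4.09). Lin28a, an RNA-binding blocker of let-7 maturation, was 2768 and 1192 (2.32-fold lower, 2.17 to 2.48), against 3805 and 1813 in shGFP cells (2.10-fold lower). Lin28a is thus a member whose fold was no smaller in shRxr cells.

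The largest decrease on the log2 scale was that of Otx2, a homeobox factor of the epiblast and forebrain. It stood at 388 and 42.2 in shRxr cells (9.19-fold lower, 6.69 to 12.9), at 772 and 22.5 in shGFP cells and at 1078 and 61.4 in shCtbp2 cells. Its untreated level was already 1.99-fold below that of shGFP cells (1.78 to 2.23). Lgals3, a galectin, was 345 and 38.2, and Pou4f2, a neuronal POU factor, was 267 and 29.1. Trh, the thyrotropin-releasing hormone gene, was 1396 and 228 (6.12-fold lower, 5.33 to 7.06). Evx1, a primitive streak homeobox gene, was 72.8 and 5.02 (14.5-fold lower, 5.98 to 45.8). Pitpnm3 was 70.3 and 5.02 (14.0-fold lower, 5.77 to 44.2) against 147 and 52.5 in shGFP cells (2.81-fold lower) and 114 and 6.93 in shCtbp2 cells (16.5-fold lower). The epithelial genes Krt17 (165 and 27.1) and Grhl2 (167 and 29.1) were also among the 20 with the largest decreases. Coch, an extracellular matrix protein, was 342 and 57.3, and Adam23, a disintegrin-domain protein, was 2026 and 529, the latter from a high untreated level. All 20 were lower in shGFP cells too, Ifrd2 by less than 2-fold.

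Id1 and Id3, inhibitor of DNA binding genes that are targets of BMP signalling, were lower in shRxr cells by a larger fold than in shGFP cells. Id1 was 1987 and 739 (2.69-fold lower, 2.47 to 2.92), against 2642 and 1482 (1.78-fold lower) in shGFP and 1951 and 1133 (1.72-fold lower) in shCtbp2 cells, and the ratio of its shRxr and shGFP folds was 1.51 (1.36 to 1.67). Id3 was 575 and 147 (3.92-fold lower, 3.28 to 4.72), against 772 and 345 (2.24-fold lower) in shGFP cells, while in shCtbp2 cells it was 578 and 146 (3.95-fold lower), as in shRxr cells. Id4, of the same family, was 96.3 and 35.2, against 138 and 25.5, so its fold was the smaller in shRxr cells. Bmp4, the ligand, was 1017 and 373 (2.73-fold lower, 2.43 to 3.07), a smaller change than 1260 and 163 in shGFP cells. Over the Nodal, BMP and TGF-beta list 6 of 26 tested genes were lower and 1 higher (1.46% and 5.26% over all genes), with a median of 0.11, close to that of all genes. The 1 higher gene, Smad6 (72.0 and 163), was under 2-fold with either other scaling.

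Among FGF genes, the receptor Fgfr2 was 62.8 and 397 (6.32-fold higher, 4.93 to 8.203). Fgf17 (56.9 and 13.1) and the feedback inhibitor Spry4 (1678 and 715) were lower, and 1 of 16 tested genes was higher and 2 lower in all (3 lower, with Fgf4, under both other scalings). Of 20 tested Wnt genes 7 were higher and none lower (5.26% and 1.46% over all genes), against 8 higher and 4 lower in shGFP cells, while Wnt6 passed 2-fold lower under both other scalings. The ligands Wnt3, Wnt3a, Wnt5b, Wnt7b and Wnt8a were all low, at 5.86 to 16.7 normalised reads untreated and 36.2 to 76.3 with RA. Fzd2, a Wnt receptor, was 46.0 and 151, and Nkd1, a Wnt feedback inhibitor, was 13.4 and 40.2.

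In the cell cycle list 29 of 31 tested genes stayed within 2-fold. Ccnd1, the G1 cyclin, was 2572 and 839 (3.07-fold lower, 2.84 to 3.31), nearly as in shGFP cells (2145 and 710, 3.02-fold lower), and Mycn was 965 and 434. Myc joined them under both other scalings. Genes of glycolysis and hypoxia had a median log2 change of -0.58, with none of 18 past 2-fold. Pkm2 was 29013.5 and 16162, and Ldha was 10573 and 5331 (1.98-fold lower). Ldha and Gapdh, a gene with many processed copies whose reads counting could split, passed 2-fold under both other scalings. The lists of the respiratory chain, cholesterol synthesis and the unfolded protein response held no gene past 2-fold in shRxr cells. RXR also partners the PPAR, LXR, vitamin D and thyroid hormone receptors, and of 17 tested genes of those receptors and their targets only Plin2, a lipid droplet protein, was past 2-fold, at 185 and 436, a share near the 5.26% higher over all genes. Among CtBP complex members and nuclear receptor coregulators only Nrip1 was, of 23.

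**Figure D4:**
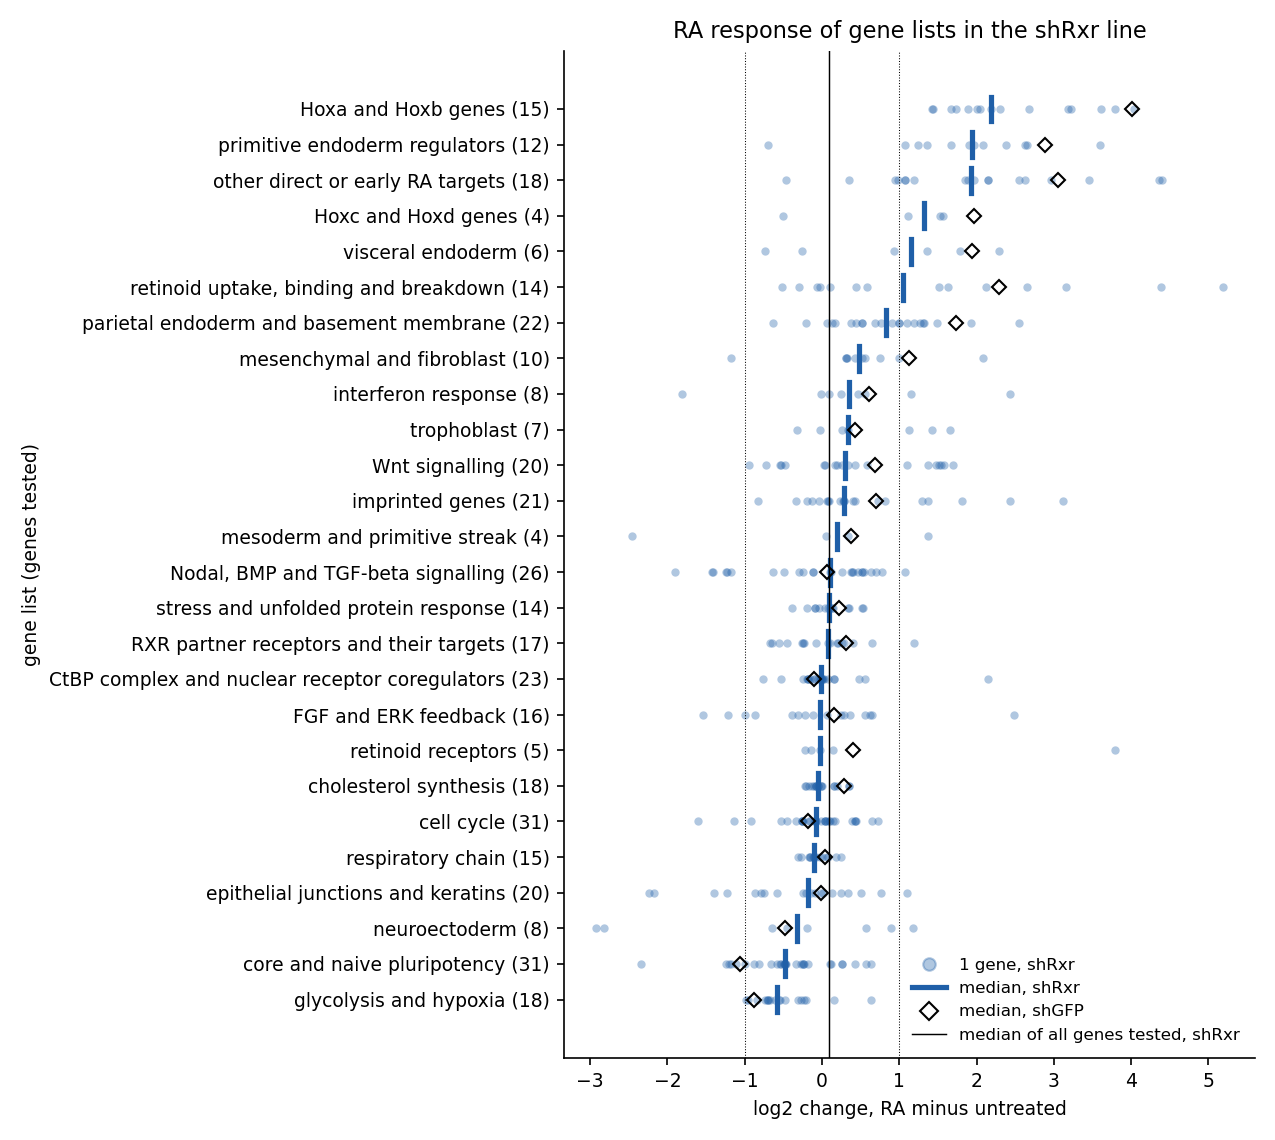
Log2 change with RA in shRxr cells, after adding 10, for the genes of lists with at least 4 tested members, 1 dot per gene. The germline and meiosis list is left out. Bars are the list medians in shRxr cells and diamonds the medians in shGFP cells, the solid line is the median of all tested genes (0.09) and the dotted lines mark 2-fold. The Hoxa and Hoxb, primitive endoderm and direct target lists lie farthest to the right, and in each of them the diamond lies beyond the bar.

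Set against the control line, the log2 change in shRxr cells was the smaller in size for 72.8% of tested genes. The reduced major axis slope of the changes of shRxr cells on those of shGFP cells was 0.58. It is the ratio of their SDs over the tested genes (0.525 and 0.909) and does not measure how well the lines agree. The Pearson correlation of the changes across genes was 0.79. Of the genes higher in shGFP cells, 482 of 1649 (29.2%) changed by less than 1.5-fold in shRxr cells, and of the genes lower there 554 of 872 (63.5%). Over all tested genes that share was 82.0%. Choosing genes on their shGFP change itself favours a smaller change in another line. Of the genes lower in shRxr cells, 157 of 180 (87.2%) were also lower in shGFP cells, where they made up 18.0% of the lower genes. Conversely, 119 of the 649 higher genes (18.3%) and 41 of the 180 lower genes (22.8%) had the larger change in shRxr cells.

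Levels of the genes that responded most in shGFP cells were compared between the lines without and with RA. Among 435 genes at least 4-fold higher with RA in shGFP cells, the median log2 difference of shRxr from shGFP was 0.35 untreated and -0.90 with RA. The choice of this set on the shGFP libraries itself favours a higher untreated and a lower treated level in another line. Adding 10 reads also shrinks the untreated differences of low genes. Of these, 34 were at least 2-fold higher in untreated shRxr cells, and 177 at least 2-fold lower in treated ones, against 0.389% and 2.62% of all tested genes. For the 122 genes at least 4-fold lower in shGFP cells the medians were -0.29 and 0.92, and 56 were at least 2-fold higher in treated shRxr cells, against 3.74% of all tested genes. Their choice on the shGFP libraries likewise favours a lower untreated and a higher treated level in another line. Over all tested genes untreated shRxr and shGFP cells differed little, with 48 genes at least 2-fold higher and 8 (0.0649%) lower in shRxr.

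**Figure D5:**
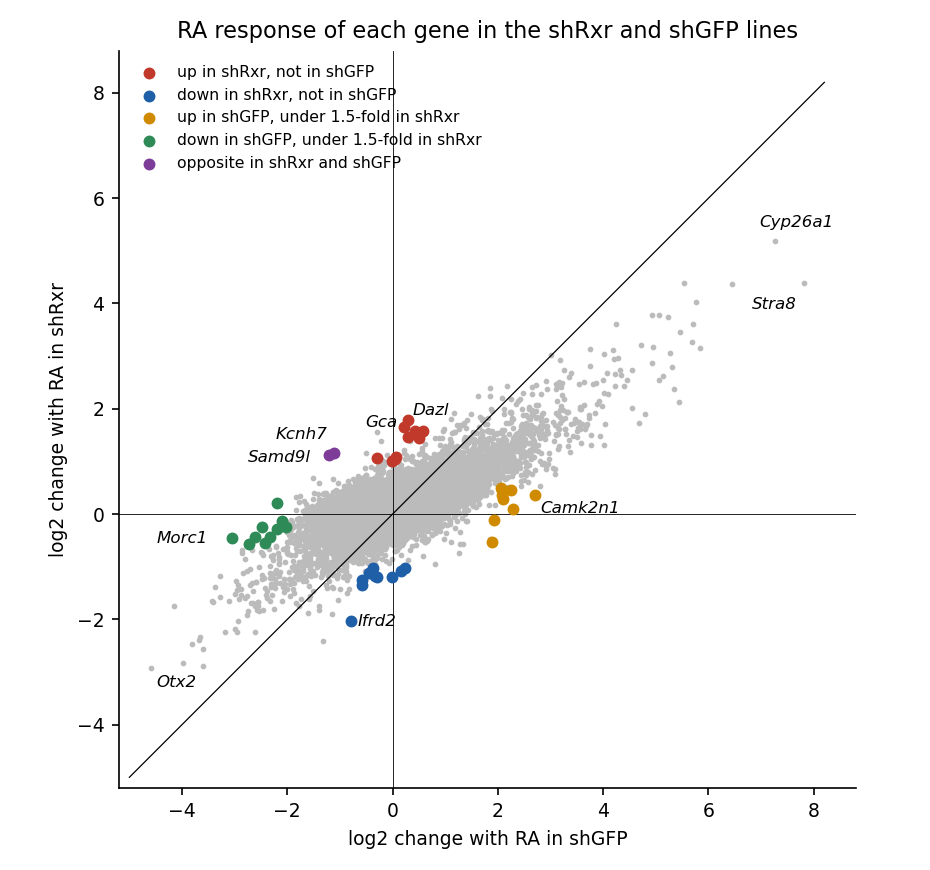
Log2 change with RA in shRxr cells (y axis) against shGFP cells (x axis), both after adding 10, 1 point per tested gene. The line marks equal changes and colours mark the named gene sets. Most far-out points lie between the line and 0 on the y axis, Dazl and Gca lie above the line near 0 for shGFP, and Samd9l and Kcnh7 lie in the upper left.

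A minority of genes passed 2-fold in shRxr cells but not in the same direction in shGFP cells. They were 71 of the 649 higher and 23 of the 180 lower genes. Most moved the same way in shGFP cells, 61 of the 71 and 21 of the 23. Samd9l and Kcnh7, at least 2-fold lower in shGFP cells, are among the 71. In shCtbp2 cells 15.1% of all tested genes were at least 2-fold higher with RA and 19.3% lower. Counting only changes in the direction seen in shRxr cells, 59 of the 71 and 16 of the 23 were past 2-fold in neither other line. Those described are from the 10 of each kind that differed most from shGFP among genes averaging at least 50 normalised reads. Dazl, a germ cell RNA-binding protein, was 43.5 and 175 in shRxr cells (4.02-fold higher, 2.93 to 5.58), 29.0 and 37.5 in shGFP cells and 27.3 and 66.3 in shCtbp2 cells. Gca, a calcium-binding protein of granulocytes, was 200.04 and 651 (3.25-fold, 2.80 to 3.79), with 176 and 208 in the shGFP line. In the shCtbp2 line it was 91.8 and 196. The mm9 spans of Gca (chr2:62502342-62532166) and Kcnh7 (chr2:62531471-63022344) overlap at their ends, so reads there cannot be told apart. Trpa1, a cation channel, was 72.8 and 219, Nrk, a kinase of the placenta, was 80.3 and 260, and Dmgdh, a mitochondrial dehydrogenase, was 27.6 and 102. Mllt3, a subunit of the super elongation complex, was 67.0 and 199. Mme, Ly6a, Stk31 and Cacna2d1 were 2.10- to 2.19-fold higher, and under 2-fold with either other scaling. Ly6a has close paralogs between which counting could split reads.

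Among the lower genes of this kind, Ifrd2 was 651 and 152 in shRxr cells (4.29-fold lower, 3.60 to 5.15), 715 and 411 in shGFP cells and 807 and 762 in shCtbp2 cells. Olfm2 was 89.6 and 39.2 in shRxr, 96.6 and 115 in shGFP and 84.4 and 62.4 in shCtbp2 cells. Other members were also lower in shCtbp2 cells. Kndc1 was 84.5 and 31.1 in shRxr, 91.0 and 90.8 in shGFP and 129.9 and 42.6 in shCtbp2 cells. Prom1, a membrane glycoprotein, was 88.7 and 33.1, 99.9 and 79.6, and 110.01 and 26.7 in that order. Crmp1, a collapsin response mediator, was 217 and 94.4 in shRxr and 489 and 201 in shCtbp2 cells. Atp2b2, a calcium pump, was 141 and 49.2 in shRxr and 135 and 65.3 in shCtbp2 cells, and Trib1, a pseudokinase, was 225 and 105.5 in shRxr and 373 and 189 in shCtbp2 cells.

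Genes past 2-fold in shGFP cells and under 1.5-fold in shRxr cells are given as values, since the set was chosen on shGFP changes, and several of them moved in shCtbp2 cells as well. Morc1, a germline ATPase, was 208 and 149.7 in shRxr cells, 350 and 33.8 in shGFP cells and 402 and 48.5 in shCtbp2 cells. Sirt1, a deacetylase, was 1401 and 1142 in shRxr cells, 1699 and 363 in shGFP cells and 1243 and 308 in shCtbp2 cells. The motor gene Kif5b was 3731 and 3129, 4179 and 1018, and 3688 and 986 in the same order. In the other direction, Camk2n1, an inhibitor of CaM kinase II, was 123 and 162 in shRxr cells, 34.6 and 281 in shGFP cells and 88.5 and 322 in shCtbp2 cells. Its untreated level in shRxr cells was already 3.55-fold above shGFP (2.51 to 5.11). The adenylyl cyclase gene Adcy6 was 116 and 164, 75.7 and 396, and 103 and 190.04 in that order of lines. Pcdh1, a protocadherin, was 131 and 87.4 in shRxr cells, 134 and 521 in shGFP cells and 53.8 and 158 in shCtbp2 cells.

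The base composition of genes moved with these sets. Median GC content was 41.1% for the 10 named genes higher in shRxr but not shGFP cells and 40.5% for the 10 lower in shGFP but under 1.5-fold in shRxr cells, against 50.1% over all tested genes. It was 56.4% for the 10 lower in shRxr but not shGFP cells and 55.1% for the 10 higher in shGFP but under 1.5-fold in shRxr cells. Over all genes at least 2-fold higher or lower it was 53.8% and 43.7% in shGFP cells, and 52.1% and 53.3% in shRxr cells. Across 12133 genes the log2 change correlated with GC content at Spearman rho 0.37 in shGFP, 0.62 in shCtbp2 and -0.06 in shRxr cells. These values describe libraries that differ in depth. The part of GC content in the differences between the lines was not tested. With a correction for GC content and length the slope against shGFP was 0.61.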

How the data were processed

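TruSeq RNA libraries of 6 groups, 1 library each, were analysed from the authors' deposited gene table, whose values are log2 of normalised reads plus 1, with reads scaled to 10000000 per library. The submitters' processing notes name TopHat 1.4, HTSeq and the build mm9. The counting mode, like the strand setting and the annotation release, is not given in the sources used here. Undoing the log gave whole reads for 100% of values within 1e-06, and library totals from 9955808 to 13322506 reads. Depth limits precision, and intervals cover counting error only, since reads without molecular identifiers are not independent molecules.

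Each value was taken as 2 to the deposited power minus 1. RA changes were differences of log2(value + 10), over genes with a mean of at least 20 across the 6 libraries, and 2-fold was the limit for counting a gene. Fold intervals are exact Clopper-Pearson 95% intervals on recovered reads, with a floor of 3 reads for a count of 0. A ratio of folds had 0.5 read added to each count and a log-normal counting interval. No test across samples was possible with 1 library a group. The counting steps were tested on simulated data. Spreadsheet date forms of 25 symbols were restored, and 145 symbols have several identifiers.

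Named genes were the retinoid receptors with Cyp26a1, Stra8 and Zfp703, and the 20 highest and 20 lowest by log2 change with a mean of at least 50. Also included were the 10 differing most from shGFP in each direction, among genes past 2-fold in shRxr but not that way in shGFP. The 10 largest shGFP changes in each direction among genes under 1.5-fold in shRxr were named too. The rest were genes past 2-fold in opposite directions and members of the gene lists. The members, lists and rules were chosen with earlier results of these data known. Promoter windows are from RefSeq on GRCm38.p6, matched by symbol, and gene coordinates are those of the deposited mm9 table. The alternatives were pseudocounts of 1 and 50, no filter or a minimum mean of 100, scaling by upper quartiles or median-of-ratios, and, added after seeing the data, a filter on the shRxr libraries alone and a correction for GC content and length. Values were computed in Python 3.11.15 (pandas 2.3.3, numpy 2.4.6, scipy 1.17.1) and drawn with matplotlib 3.10.9. Some named genes are not reported here.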

Additional observations from a re-analysis of the deposited data

Results flagged for a closer look

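In 2 genes the RA change was past 2-fold in opposite directions in shRxr and shGFP cells. Samd9l, a gene of the interferon response family, was 37.7 untreated and 93.4 with RA in shRxr cells (2.48-fold higher, 1.72 to 3.62) and 56.4 and 18.8 in shGFP cells (3.004-fold lower), so the log2 changes differed by 2.32. Kcnh7, a potassium channel gene, was 41.0 and 103 in shRxr cells (2.52-fold higher, 1.78 to 3.62) and 39.5 and 12.8 in shGFP cells (3.09-fold lower), a difference of 2.27. In shCtbp2 cells Samd9l was 51.3 and 40.6 and Kcnh7 was 29.0 and 17.8. With 1 library a group neither difference was tested. Both genes were under 2-fold in shRxr cells with a pseudocount of 50, and the end of Kcnh7 overlaps Gca, which was also higher in shRxr cells.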

How the results depend on the processing

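No paired analysis was possible because each group is 1 library and the labels carry no replicate numbers, and no library could be left out for the same reason. The 649 higher and 180 lower genes of shRxr cells became 248 and 80 when the pseudocount was 50. A minimum mean of 100 gave 302 and 108. They stayed within 1.5 times under the other alternatives, between 519 and 855 higher and between 168 and 241 lower. The reduced major axis slope against shGFP cells, 0.577, was 0.596 with a pseudocount of 1, 0.557 with 50, 0.602 without a filter and 0.563 with a minimum mean of 100. It was 0.578 with upper quartiles and 0.577 with median-of-ratios, 0.581 with the filter on the shRxr libraries and 0.615 with the GC and length correction. Of the 61 genes past 2-fold in shRxr cells that were named by rank or by the comparison with shGFP cells, not as list members, all 347 alternative values kept their direction and 323 stayed past 2-fold. A pseudocount of 50 took 16 genes under 2-fold and each scaling took 4. Among list members each scaling also took Skap2, Ets1, Sox7 and Smad6 under 2-fold. Genes near the minimum rest on few reads and have wide counting intervals.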

Other observations

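Germline and meiosis genes were listed after their values had been seen, so their counts are a description. Of 34 listed, 23 were tested, 4 were at least 2-fold higher with RA in shRxr cells and none lower, with a median log2 change of 0.54, and 19 of the 23 were above 0, against 7358 of 12332 over all genes. In shGFP cells 3 were higher and 3 lower, with a median of 0.07. The 4 were Stra8, Dazl, Tex11 and Stk31, and Stk31 was under 2-fold with either other scaling. Tex11, an X-linked meiotic gene, was 46.0 untreated and 142 with RA in shRxr cells (3.08-fold higher), against 49.1 and 99.1 in shGFP cells. Ddx4 (Vasa), a germ cell helicase, was 309 and 599 (1.94-fold higher, 1.70 to 2.21), against 305 and 341. Sycp1, a synaptonemal complex protein, was 156 and 198, against 143 and 54.0. Rec8, a meiotic cohesin, had the larger change in shGFP cells, at 210 and 374 against 159 and 956.

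Of 21 tested imprinted genes, 5 were at least 2-fold higher and none lower with RA in shRxr cells, against 9 higher and 2 lower in shGFP cells. Over all tested genes 5.26% were higher and 1.46% lower in shRxr cells, and 13.4% and 7.07% in shGFP cells. H19, a noncoding RNA beside Igf2, was 1.67 and 53.2 (31.8-fold, 8.38 to 269). Plagl1, a zinc finger factor, was 91.2 and 347 in shRxr cells (3.80-fold, 3.05 to 4.76) and 77.3 and 295 in shGFP cells (3.82-fold), so it was as high in both. Dlk1, a Notch-like ligand, was 28.5 and 84.4, against 15.3 and 246.

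The counts of the smaller lists that follow stand beside 5.26% higher and 1.46% lower over all tested genes in shRxr cells. Among 8 tested interferon response genes, Oasl2 had 0 reads untreated and 44.2 normalised reads with RA in shRxr cells, at least 17.6-fold higher, and 0 and 79.6 in shGFP cells. Ddx58 (RIG-I) was 382 and 101, 3.76-fold lower. Of 7 tested trophoblast genes 3 were higher and none lower in shRxr cells, namely Gata2, Gata3 (33.5 and 106) and Esx1 (46.9 and 170). Of 8 tested neuroectoderm genes Pax6, an eye and brain factor, was higher at 38.5 and 99.4, and Otx2 and Pou4f2 were lower. Of 10 tested mesenchymal genes 1 was higher, the receptor gene Pdgfrb at 78.7 and 365 (4.63-fold), and 1 lower, Thy1 at 35.2 and 10.04. Of 20 tested epithelial genes 4 were lower, among them Cdh3 (504 and 185) and the splicing factor gene Esrp1 (88.7 and 32.1), and 1 was higher, Krt19 at 20.9 and 56.2.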
